A study of Mus musculus with 31 samples.

Results

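Genes of glycolysis, the pentose phosphate pathway and the response to low oxygen were followed in mouse bone-marrow macrophages given LPS or live E. coli. The set is a list of 41 genes, and a gene was taken where a probe of the array carries exactly its symbol. A probe was found for 29 of the 41, and 18 of these had enough values to be tested, among 5954 named genes tested in all. The other 11 with a probe were measured on 3 to 14 of the 31 arrays and are described by their single values. No probe carried the symbols Hk3, Gpi1, Tpi1, Pfkfb1, Pfkfb4, Eno1, Pdk1, Pdk3, G6pdx, Egln1, Car9 or Ero1l, so the first enzyme of the pentose phosphate pathway and the main oxygen sensor were not analysed here.

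Glycolysis breaks glucose down to pyruvate in the cytosol, and the pentose phosphate pathway branches off after the first, hexokinase, step to make NADPH and ribose phosphate. HIF-1, a factor whose alpha subunit Hif1a is destroyed when oxygen is plentiful, switches on many glycolytic genes together with Vegfa and other hypoxia genes. Macrophages activated through Toll-like receptors are known to turn to glycolysis and lactate production and to raise Hif1a mRNA through NF-kB.

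Macrophages were grown for 8 days out of the marrow of mice aged 6 to 8 weeks, either C57BL/6J wild-type or MyD88-deficient (MyD88-/-). L929-conditioned medium served as the source of CSF-1, the growth factor for macrophages. MyD88 is an adaptor protein that nearly all Toll-like receptors need, and the LPS receptor also has another adaptor route that does not use it. Cells received LPS re-purified from E. coli O111 (10 ng/mL), live log-phase E. coli (1 per macrophage) or medium alone (mock) for 2 hours. Each 2-colour array set stimulated against mock cells of the same genotype, so a value is a log2 ratio, read as stimulated over mock (a direction that is likely, as the titles name it, but not stated). The 4 groups of genotype and stimulus hold 4 mice each, and both dye orientations were averaged for a mouse, except for MyD88-/- LPS mouse 4, which has 1 array. Where a probe had a value on only 1 array of a mouse's pair, that array stands alone. The labels number the mice 1 to 4 within a genotype for both stimuli, and whether a mouse's mock RNA was shared between its LPS and E. coli arrays is not stated.

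Each array held 5564 to 10497 values, and the number of arrays, not read depth, limits the precision here. A ratio gives no level, so neither the loss of Myd88 nor the identity of the cells can be checked against absolute signal, and in bulk RNA fewer cells of a type and less RNA per cell cannot be told apart. Of the macrophage markers 13 of 21 listed were tested. With LPS, 1 was called higher and 3 lower in wild-type cells, and 1 and 2 in MyD88-/- cells. With E. coli these counts were 1 and 3 in wild-type and 2 and 1 in MyD88-/- cells. Over all genes tested the shares were 8.53% higher and 9.09% lower, 5.81% and 4.87%, 9.86% and 11.9%, and 6.82% and 4.57% in that order. They are the background of the other markers too. Called in all 4 groups were a rise of Msr1 and a fall of Fcgr3. Of the markers of other cells, 1 T cell, 5 B cell, 4 neutrophil, 3 dendritic, 2 erythroid and 2 stromal genes could be tested. Called among these were Blnk, an adaptor of B cells that macrophages also carry, lower in all 4 groups, Cd79a, lower in MyD88-/- cells with LPS, Zbtb46, higher in wild-type cells with LPS, and Sparc, higher in wild-type cells with E. coli. Their part in the results was not tested.

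At 2 hours the 18 tested members as a whole stayed close to the array's average, and among them a single enzyme, Hk2, rose in every group. A gene was called where its adjusted p in limma was under 0.05. In wild-type cells given LPS, 2 of the 18 members were higher, Hk2 and Hif1a, and 1 was lower, Pkm, where 8.53% of all genes tested were higher and 9.09% lower. In MyD88-/- cells given LPS, Hk2 was the 1 member called higher (5.81% of all genes) and 0 were lower (4.87% of all genes). With E. coli, Hk2 was higher and Pkm lower in wild-type cells, against backgrounds of 9.86% and 11.9%, and in MyD88-/- cells Hk2 was higher and no member lower, against 6.82% and 4.57%. The share of members called was thus near the background in each direction. At an unadjusted p under 0.05, limma counted 5 members in wild-type LPS, 6 in MyD88-/- LPS, 5 in wild-type E. coli and 5 in MyD88-/- E. coli, and the same threshold took 30.0%, 22.6%, 33.7% and 23.0% of all genes.

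The median log2 ratio of the members was -0.06, -0.11, -0.16 and 0.00 in the 4 groups (LPS in wild-type and MyD88-/- cells, then E. coli in the same order), and that of all genes lay at -0.05, -0.05, -0.06 and -0.05. The precision was enough to bound most members. The 95% interval lay below a 2-fold rise, a log2 ratio of 1, for 16 of the 18 members in each of the 4 groups, and the exceptions were Hk2 and Hif1a each time. It lay wholly within 2-fold in either direction for 15, 13, 13 and 14 members in the same order of groups, and Vegfa reached past a 2-fold fall in each.

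**Figure D1:**
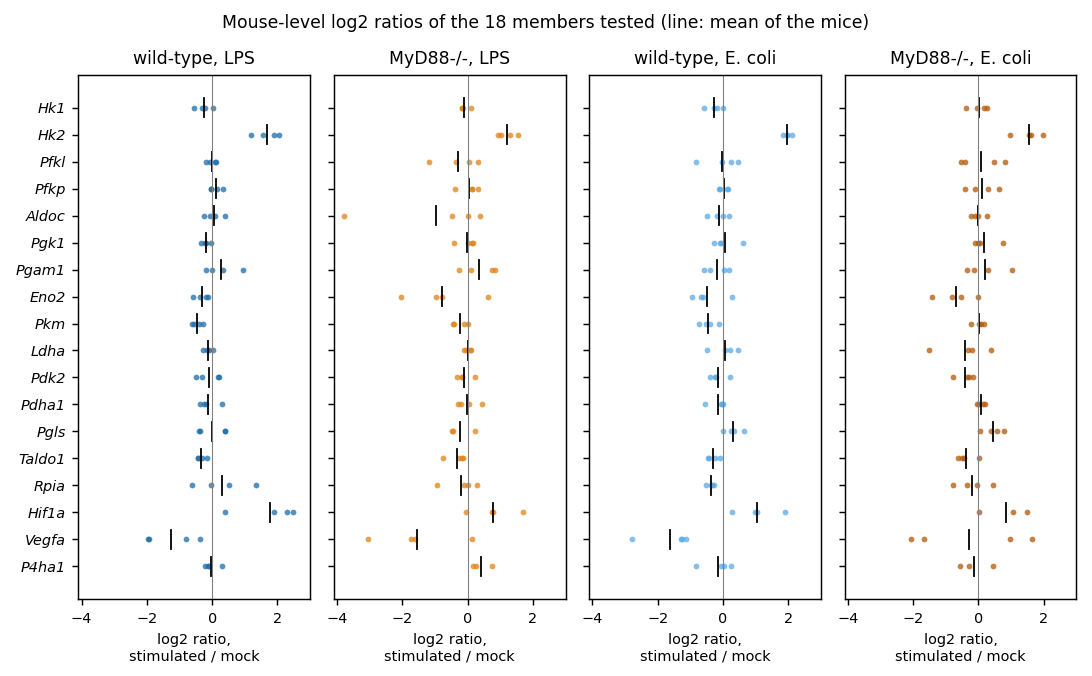
Log2 ratio of stimulated over mock cells (horizontal axis) for the 18 members tested, 1 panel per group of genotype and stimulus. Points are mice (3 or 4 per gene and group) and black lines their means. Hk2 lies to the right of 0 in every mouse, while most enzymes lie around 0 and Vegfa is widely spread.

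The hexokinases phosphorylate glucose and so hold it in the cell. Hk2, the inducible isoform, was measured on all 31 arrays. In the wild-type mice 1 to 4 its log2 ratio was 1.89, 1.56, 2.03 and 1.18 with LPS. In the MyD88-/- mice it was 1.31, 1.04, 0.95 and 1.55 with LPS. With E. coli it was 1.95, 2.10, 1.82 and 1.96 in the wild-type mice and 0.97, 1.98, 1.55 and 1.62 in the MyD88-/- mice. All 16 values were positive, and the ranges of the genotypes overlapped under both stimuli, although the 4 wild-type values with E. coli lay close together and only 1 MyD88-/- mouse reached them. The fitted rise was 1.67 ± 0.16 (SE, n = 4) in wild-type cells with LPS (3.17-fold, adjusted p = 3.52e-06) and 1.21 ± 0.16 in MyD88-/- cells (2.32-fold, adjusted p = 0.000121). With E. coli the rise was 1.96 ± 0.16 in wild-type cells (3.89-fold, adjusted p = 4.71e-07) and 1.53 ± 0.16 in MyD88-/- cells (adjusted p = 1.1e-05). Hk2 kept its call in all 26 alternative settings of each response.

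The rise of Hk2 was smaller in MyD88-/- cells by 0.45 on the log2 scale with LPS (difference -0.45 ± 0.23, 95% interval -0.95 to 0.04) and by 0.43 with E. coli (-0.43 ± 0.23, -0.92 to 0.07). Neither difference passed the test (adjusted p = 0.606 and 0.457 in limma), and the intervals take in both no difference and a rise smaller by more than 0.90. Of all 5954 genes tested 230 (3.86%) were called higher in all 4 responses, and Hk2 was the 1 member among them. Of the 146 genes (2.45%) called lower in all 4 none was a member.

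Hk1, the constitutive isoform, did not follow Hk2. Its mouse values lay between -0.58 and 0.25, and its fitted log2 ratios were -0.26, -0.10, -0.27 and 0.00 in wild-type and MyD88-/- cells with LPS and then with E. coli (adjusted p = 0.203, 0.719, 0.175 and 0.997). Hk2 minus Hk1 was above 0 in 16 of 16 mice, from 0.86 to 2.68, a comparison of changes and not of levels.

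The phosphofructokinases commit the sugar to glycolysis and aldolase then splits it. None of Pfkl, Pfkp and Aldoc passed the test in any group. The fitted log2 ratios of Pfkp, the platelet form, stayed between 0.02 and 0.11. Those of Pfkl, the liver form, lay between -0.29 and 0.09. Aldoc was at 0.04, -0.98, -0.13 and -0.02 in the 4 groups (LPS in wild-type and MyD88-/- cells, then E. coli in the same order). The second of these values rests on MyD88-/- LPS mouse 4, the mouse with 1 array, whose log2 ratio was -3.78 against -0.49, 0.00 and 0.37 in the other mice. Pfkm and Aldoa were each measured on 6 arrays. Pfkm gave values from -1.54 to 1.32 over 6 mice, and Aldoa, the muscle-type aldolase, from -3.27 to 0.65, which places neither.

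Pfkfb3 makes the sugar phosphate that activates phosphofructokinase, and is known as an inducible gene of activated macrophages. Its probe had values above the floor in 5 mice only. They were -3.86 and 0.95 in wild-type LPS mice 2 and 4, -2.38 in MyD88-/- LPS mouse 3, 0.14 in wild-type E. coli mouse 4 and -2.01 in MyD88-/- E. coli mouse 1. Values of either sign within 1 group leave its response undetermined in these data.

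In lower glycolysis the triose phosphate is turned into pyruvate, with pyruvate kinase (Pkm) at the last step. The log2 ratio of Pkm was -0.55, -0.63, -0.42 and -0.28 in the 4 wild-type mice with LPS and -0.53, -0.39, -0.12 and -0.75 with E. coli. In the MyD88-/- mice it was 0.01, -0.11, -0.46 and -0.42 with LPS and 0.07, 0.02, -0.24 and 0.16 with E. coli. All 8 wild-type values were negative, 3 of 4 MyD88-/- values were negative with LPS, and 3 of 4 were positive with E. coli. Pkm fell by 0.47 on the log2 scale in wild-type cells with LPS (-0.47 ± 0.12, SE, n = 4, a 1.38-fold fall, adjusted p = 0.0164) and by 0.45 with E. coli (-0.45 ± 0.12, adjusted p = 0.0178). In MyD88-/- cells it was at -0.25 ± 0.12 with LPS (adjusted p = 0.277) and 0.00 ± 0.12 with E. coli (adjusted p = 0.996).

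The genotype difference of Pkm was 0.45 ± 0.18 with E. coli (95% interval 0.07 to 0.83), with an unadjusted p of 0.0223 and an adjusted p of 0.276 in limma, so it was not called. With LPS it was 0.22 ± 0.18 (adjusted p = 0.744). The fall with LPS lost its call without wild-type LPS mouse 1 (adjusted p = 0.0706) or mouse 2 (0.0853). The fall with E. coli lost it without wild-type E. coli mouse 1 (adjusted p = 0.068) or mouse 4 (0.11), and both lost it in fits of the compared groups alone (0.0862 and 0.13). On dye-swapped arrays alone the values were -0.52 and -0.49 and were not called (adjusted p = 0.0933 and 0.0937).

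The other enzymes of this stretch did not pass the test in any group. Pgk1, which makes ATP from 1,3-bisphosphoglycerate, was fitted between -0.20 and 0.18. Pgam1, the mutase, was fitted between -0.19 and 0.36, with single mice up to 1.03. Eno2, the neuronal enolase, was fitted at -0.32, -0.79, -0.49 and -0.69, negative in all 4 groups, with adjusted p = 0.543, 0.149, 0.312 and 0.211. Gapdh had a value in 1 mouse of each group, -1.16 in wild-type LPS mouse 4, -0.22 in MyD88-/- LPS mouse 2, -0.27 in wild-type E. coli mouse 2 and -0.11 in MyD88-/- E. coli mouse 1. All 4 were negative, with no replicate in any group.

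Lactate dehydrogenase turns pyruvate into lactate. The log2 ratio of its A subunit Ldha was -0.29, -0.11, -0.15 and 0.02 in wild-type mice with LPS, and -0.12, 0.07, -0.06 and 0.10 in MyD88-/- mice. Under E. coli the ratio of Ldha was -0.49, 0.05, 0.20 and 0.44 in wild-type mice and 0.39, -0.21, -0.34 and -1.53 in MyD88-/- mice. Ldha lay between -0.29 and 0.10 in all 8 mice given LPS, and the widest values were those of MyD88-/- mice given E. coli. There the -1.53 came from 1 swapped array. In that group the unswapped arrays averaged 0.17 and the swapped arrays -0.72. With LPS the fitted value in wild-type cells was -0.13, with a 95% interval from -0.60 to 0.34, so a rise of Ldha mRNA beyond 0.34 on the log2 scale lay outside it. Ldhb had values in 3 mice, 0.98, 0.12 and 0.14.

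Pyruvate dehydrogenase feeds pyruvate to the mitochondria and its kinases switch it off. Pdha1, its catalytic subunit, was fitted between -0.16 and 0.08. The kinase Pdk2 was at -0.10, -0.12, -0.16 and -0.40 in wild-type and MyD88-/- cells with LPS and then with E. coli, where the last had an unadjusted p of 0.0197 and an adjusted p of 0.122 in limma. Pdk4, another kinase of the complex, had values in 11 mice, 9 of them between 0.08 and 1.28, and -2.14 and -0.58 in the other two.

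Of the pentose phosphate enzymes, Pgls (6-phosphogluconolactonase), Taldo1 (transaldolase) and Rpia (ribose-5-phosphate isomerase) could be tested, and none was called. Taldo1 was negative in 15 of 16 mice, and was fitted at -0.35, -0.33, -0.31 and -0.40 (adjusted p = 0.0901, 0.145, 0.117 and 0.0727) in the order LPS in wild-type and MyD88-/- cells, then E. coli in both. The SE was 0.13 in each. Taldo1 passed in wild-type LPS on unswapped arrays and with a dye term and random block. In MyD88-/- E. coli it passed in these settings too, and without MyD88-/- LPS mouse 4 or MyD88-/- E. coli mouse 1.

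Pgls was at -0.38, 0.40, 0.40 and -0.40 in wild-type mice with LPS, and at -0.43, 0.23 and -0.47 in 3 MyD88-/- mice. With E. coli it was at 0.64, 0.25, 0.00 and 0.35 in wild-type mice and 0.38, 0.78, 0.04 and 0.58 in MyD88-/- mice. With dyes averaged no mouse given E. coli was below 0, while values with LPS went both ways. In MyD88-/- cells given E. coli, however, the unswapped arrays averaged 1.00, a call when fitted alone (adjusted p = 0.0453), and the swapped arrays -0.11. In wild-type cells 1 array given E. coli was at the floor, and keeping that value turned the fitted Pgls response from 0.31 to -0.60. In MyD88-/- cells the response to E. coli exceeded that to LPS by 0.67 ± 0.28 (unadjusted p = 0.03, adjusted p = 1 in limma), and the ranges overlapped.

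Rpia was at -0.61, -0.03, 0.51 and 1.34 in wild-type mice with LPS and at -0.27, -0.38, -0.53 and -0.35 with E. coli. In MyD88-/- mice it was at -0.11, -0.93, 0.00 and 0.29 with LPS and -0.05, -0.78, -0.35 and 0.44 with E. coli. The 4 wild-type mice given E. coli were all below 0, and those given LPS were spread across it. In wild-type cells unswapped and swapped arrays of Rpia averaged 0.65 and -0.22 with LPS, and -0.06 and -0.65 with E. coli. In MyD88-/- cells these averages were 0.27 and -0.95 with LPS, and -0.55 and 0.92 with E. coli. The difference between the stimuli in wild-type cells was -0.69 ± 0.37 (adjusted p = 0.999). Pgd, the enzyme that releases CO2 in this pathway, had values in 10 mice from -2.49 to 1.59. Tkt, transketolase, had values in 8 mice from -1.21 to 3.14, and neither could be tested.

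Hif1a, the oxygen-regulated subunit of HIF-1, was measured on 26 arrays. Its log2 ratio was 1.90, 2.48, 2.29 and 0.40 in wild-type mice with LPS and 0.75, 0.76, 1.68 and -0.06 in MyD88-/- mice. After E. coli, Hif1a was at 1.89, 0.99, 0.26 and 1.05 in wild-type mice, and 1.49, 1.07 and 0.01 in MyD88-/- mice 1, 3 and 4. In wild-type cells with LPS 3 mice lay above every MyD88-/- value and the fourth below 3 of them, so the ranges overlapped. Hif1a rose by 1.77 ± 0.36 (SE, n = 4) in wild-type cells with LPS (3.41-fold, adjusted p = 0.00312). It was at 0.78 ± 0.36 in MyD88-/- cells with LPS (adjusted p = 0.214), 1.05 ± 0.36 in wild-type cells with E. coli (adjusted p = 0.0505) and 0.85 ± 0.41 in MyD88-/- cells with E. coli (n = 3, adjusted p = 0.243).

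The call of Hif1a in wild-type LPS held in the 25 alternative settings that could test it, although the unswapped arrays averaged 2.78 (3 arrays) and the swapped arrays 1.35 (4 arrays). In wild-type E. coli it passed in 9 of 25 settings, among them each array centred on its median (adjusted p = 0.0481) and a fit with a dye term (0.0232). Hif1a passed there also without LPS mouse 2 or 4 of the wild type, LPS mouse 3 or 4 of MyD88-/-, E. coli mouse 3 of the wild type or E. coli mouse 4 of MyD88-/- (adjusted p from 0.024 to 0.0499). The genotype difference with LPS was -0.98 ± 0.50 (95% interval -2.07 to 0.10, adjusted p = 0.607) and that with E. coli -0.19 ± 0.54 (adjusted p = 0.93). Egln3, an oxygen sensor that is itself a HIF target, had values in 4 mice, 0.85, 0.43, 0.38 and 1.16, and 1 further MyD88-/- LPS array at the floor, too few to test.

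Vegfa, the endothelial growth factor and a standard HIF target, did not move with Hif1a. Its log2 ratio was -1.95, -0.79, -1.97 and -0.38 in wild-type mice with LPS and 0.14, -1.60, -1.74 and -3.06 in MyD88-/- mice. After E. coli, Vegfa was at -2.78, -1.28, -1.26 and -1.14 in wild-type mice and 0.96, -1.68, -2.08 and 1.63 in MyD88-/- mice. All 8 wild-type values were negative, and the MyD88-/- values with E. coli were split between both signs. The 1.63 of MyD88-/- mouse 4 came from 1 unswapped array, since its swapped array was at the floor. In wild-type E. coli the -2.78 of mouse 1 came from 1 unswapped array and the -1.28 of mouse 2 from 1 swapped array. The fitted values were -1.27 ± 0.57 (adjusted p = 0.154), -1.56 ± 0.57 (0.11), -1.62 ± 0.57 (0.0582) and -0.29 ± 0.57 (0.832) in the 4 groups (LPS in wild-type and MyD88-/- cells, then E. coli in the same order). In wild-type E. coli Vegfa passed in 8 of 26 alternative settings, at values from -2.10 to -1.50, among them the fits that left out MyD88-/- mouse 1 or 4 given LPS or MyD88-/- mouse 3 or 4 given E. coli (adjusted p from 0.0377 to 0.0488). Its genotype difference with E. coli, 1.32 ± 0.81, had a 95% interval from -0.41 to 3.05. With floor values kept, the fitted value of Vegfa was -1.33 in MyD88-/- E. coli, in place of -0.29. In wild-type E. coli it was then -2.10, in place of -1.62.

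P4ha1, a collagen prolyl hydroxylase induced by low oxygen, was at -0.21, -0.12, -0.09 and 0.32 in wild-type mice with LPS and at 0.25, 0.76 and 0.18 in 3 MyD88-/- mice. The E. coli values of P4ha1 were -0.84, 0.26, -0.07 and 0.02 in wild-type mice and 0.44, -0.55 and -0.28 in 3 MyD88-/- mice. All 3 MyD88-/- mice given LPS were above 0, the other groups went both ways, and no response was called. E. coli minus LPS was -0.52 ± 0.32 in MyD88-/- cells (adjusted p = 1), and -1.59 with the value of P4ha1 at the floor kept, again not called. Adm, the peptide adrenomedullin, had values in 7 mice from -3.33 to 1.43, and P4ha2 in 3 mice from -0.48 to 0.34.

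**Figure D2:**
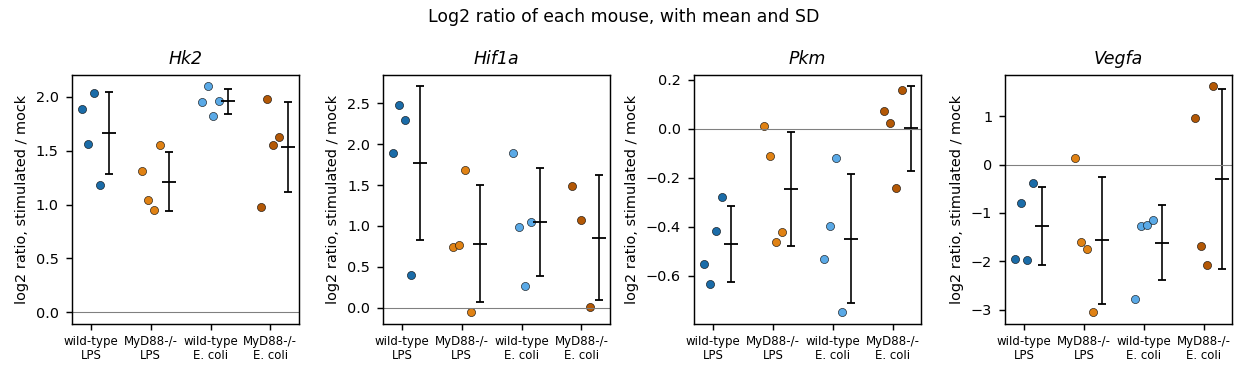
Log2 ratio of stimulated over mock cells (vertical axis) of Hk2, Hif1a, Pkm and Vegfa in each mouse, by group. Points are mice, and the bar beside them is their mean with the SD (n = 4, or 3 for Hif1a in MyD88-/- E. coli). Hk2 is above 0 in all 16 mice, Pkm is below 0 in all 8 wild-type samples, and Vegfa spreads from -3.06 to 1.63.

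The comparisons of genotype and of stimulus named no member. MyD88-/- minus wild-type was called for 0 of the 18 members with LPS (0.269% of all genes) and 0 with E. coli (0.806% of all genes). E. coli minus LPS was called for 0 members and 0.0% of all genes in wild-type cells, and for 0 members and 0.0% in MyD88-/- cells. At an unadjusted p under 0.05, limma counted 0 members with LPS and 1 with E. coli (Pkm) for genotype, and 0 in wild-type and 1 in MyD88-/- cells (Pgls) for stimulus. The same threshold took 543, 813, 242 and 140 of all genes. The mouse values of 2 groups did not overlap for 0 of 18 members in each of these comparisons, against 6.75%, 9.12%, 2.62% and 2.2% of all genes.

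The absence of calls leaves wide intervals. The 95% interval of the genotype difference lay within 2-fold in either direction for 11 of 18 members with LPS and 12 with E. coli, and for Vegfa, Aldoc, Eno2 and Hif1a it reached past that under both stimuli. LPS and E. coli were compared at 1 dose and 1 time each.

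**Figure D3:**
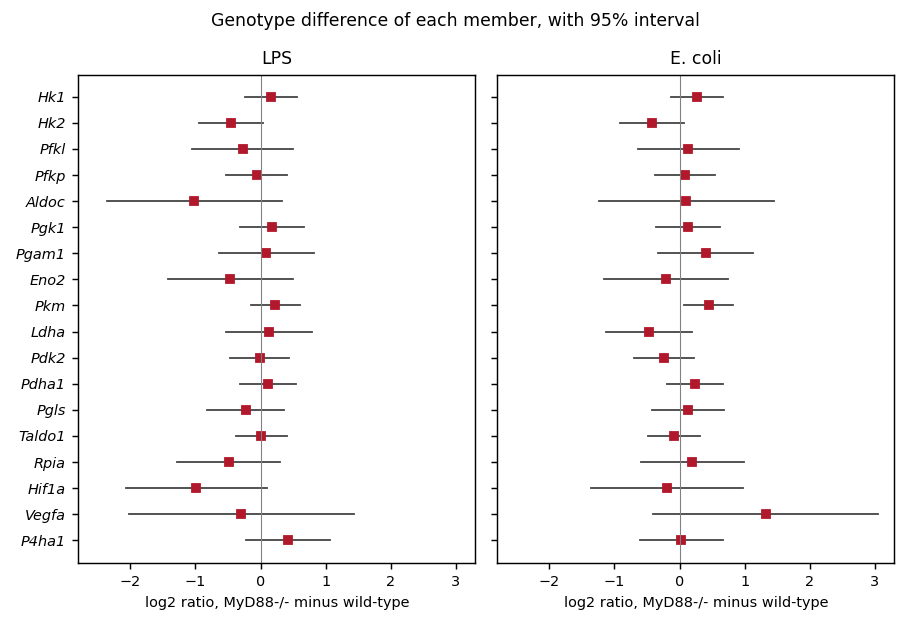
Difference of the log2 ratio, MyD88-/- minus wild-type (horizontal axis), for each of the 18 members with LPS and with E. coli. Squares are fitted differences and lines their 95% intervals (limma). The interval of Pkm with E. coli, 0.07 to 0.83, lies to the right of 0, and no difference was called after adjustment.

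HIF binds the core ACGTG in the hypoxia response element, so the promoters of the tested members were searched for ACGTG on both strands (CACGTG counts on each strand) and, separately, for the NF-kB consensus, over 250 bases before to 50 after each RefSeq start. ACGTG was in 11 of 24 promoters of the 18 members (45.8%), against 19.6% of all 32851 promoters of the same length, and the NF-kB consensus in 2 (8.33%) against 4.51%. Counted by gene, 11 of 18 members (61.1%) held ACGTG, against 21.8% of all genes with a promoter, among them Hk1, Hk2, Ldha, Pgk1, Pgam1, Pkm, Hif1a and Vegfa. In Hk1, Ldha, Pkm and Vegfa it was in the window of only 1 of the 2 starts. For Vegfa that was the downstream start, and the window of the upstream start held 0 matches. The 250 bases upstream of the start are shown for Hk2, the member called in every group, for Hif1a, and for 1 of the 2 RefSeq starts of Ldha, which was called in none, in RefSeq build GRCm38.p6, with ACGTG on either strand in capitals.
Hk2, chr6:82774455-82774704 (- strand): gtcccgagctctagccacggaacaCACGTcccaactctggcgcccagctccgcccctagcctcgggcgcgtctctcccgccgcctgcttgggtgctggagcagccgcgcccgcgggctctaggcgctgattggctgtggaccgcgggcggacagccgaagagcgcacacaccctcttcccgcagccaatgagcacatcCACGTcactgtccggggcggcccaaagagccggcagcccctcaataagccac
Hif1a, chr12:73907617-73907866 (+ strand): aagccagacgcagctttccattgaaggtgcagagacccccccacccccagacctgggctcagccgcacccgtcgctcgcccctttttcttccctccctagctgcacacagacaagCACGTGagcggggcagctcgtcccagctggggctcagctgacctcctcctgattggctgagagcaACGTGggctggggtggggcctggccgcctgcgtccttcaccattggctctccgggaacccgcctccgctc
Ldha, chr7:46845554-46845803 (+ strand): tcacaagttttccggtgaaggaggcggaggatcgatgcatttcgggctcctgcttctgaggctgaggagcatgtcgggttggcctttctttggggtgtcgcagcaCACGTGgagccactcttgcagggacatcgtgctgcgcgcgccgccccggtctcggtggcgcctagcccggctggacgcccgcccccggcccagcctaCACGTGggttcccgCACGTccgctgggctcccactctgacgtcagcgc
Hk2 held 2 matches, first bases at -226 and -52 from the start. Hif1a held 3, at -135, -134 and -70, the first pair being 1 CACGTG read on both strands. Ldha held 5, at -145, -144, -48, -47 and -34. In Ldha too each CACGTG counts on both strands, and the window of its other start held 0 matches. A match is a run of letters, not a site shown to be bound. The list was drawn up from pathways that hold known HIF targets, so its higher share of ACGTG is partly built in and tests nothing.

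Genes around the set were taken from 4 further lists. Of 23 tested genes of glucose and pyruvate handling, 1 was higher and 4 lower in wild-type LPS, 1 and 1 in MyD88-/- LPS, 1 and 1 in wild-type E. coli, and 2 and 1 in MyD88-/- E. coli. Over all genes the shares were 8.53% higher and 9.09% lower, 5.81% and 4.87%, 9.86% and 11.9%, and 6.82% and 4.57% in that order, and they are the background of the next lists too. Slc2a1, the glucose transporter GLUT1, was the gene higher in all 4 groups. Its log2 ratio was 1.27, 0.58, 0.65 and 0.58 in wild-type and 0.77, 0.56, 0.66 and 0.31 in MyD88-/- mice with LPS. The E. coli values of Slc2a1 were 1.49, 1.32, 1.00 and 1.09 in wild-type and 1.16, 1.12, 0.60 and 0.55 in MyD88-/- mice. All 16 values were positive, as for Hk2, the enzyme that acts next on the glucose it brings in. The fitted rise was 0.77 ± 0.15 (adjusted p = 0.00191), 0.58 ± 0.15 (0.0206), 1.23 ± 0.15 (2.42e-05) and 0.86 ± 0.15 (0.00103) in wild-type and MyD88-/- cells with LPS and then with E. coli. The call in wild-type LPS was lost in 1 of 26 settings, and that in MyD88-/- LPS in 5 of 26 settings, among them without mouse 1, 2 or 3 of that group (adjusted p = 0.111, 0.0637 and 0.088). The genotype differences of Slc2a1 were -0.20 and -0.37 and were not called (adjusted p = 0.815 and 0.487).

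Got1, the cytosolic aspartate aminotransferase of the malate-aspartate shuttle, was lower in all 4 groups. It fell by 0.72 (-0.72 ± 0.13, adjusted p = 0.00118) in wild-type and by 0.64 (-0.64 ± 0.13, 0.00425) in MyD88-/- cells with LPS, and by 1.08 (-1.08 ± 0.13, 2.36e-05) and 0.62 (-0.62 ± 0.13, 0.00497) with E. coli. All 16 mice were below 0, from -1.24 to -0.26, and the calls in MyD88-/- cells were lost in 2 of 26 settings with each stimulus. Pfkfb2, Me1 and Slc37a4, the transporter that carries glucose-6-phosphate into the endoplasmic reticulum, were lower in wild-type LPS (-0.96 ± 0.27, -1.51 ± 0.46 and -1.25 ± 0.38), Me1 with 3 mice. Each of these calls was lost without single wild-type mice given LPS: mouse 1 (-0.47) or 4 for Pfkfb2, mouse 3 or 4 (-0.88) for Me1, and mouse 1, 2 or 4 for Slc37a4. Slc16a3, the lactate exporter MCT4, was higher in MyD88-/- E. coli (0.64 ± 0.16, adjusted p = 0.0143), and lost its call without mouse 4 of that group (adjusted p = 0.1). Of 6 other pentose phosphate genes 1 was called, Tktl1, lower in wild-type E. coli (-0.42 ± 0.11, adjusted p = 0.0144), a call lost without mouse 2 of that group (adjusted p = 0.0731).

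Of 20 other hypoxia genes, 2 were higher and 5 lower in wild-type LPS, 2 and 3 in MyD88-/- LPS, 2 and 5 in wild-type E. coli and 1 and 3 in MyD88-/- E. coli. The list mixes HIF targets with regulators of HIF, and it is to be read against the shares over all genes given above. Bnip3l and Mxi1 were lower in wild-type cells, at -0.47 and -0.79 with LPS and -0.50 and -0.82 with E. coli. P4hb was lower in wild-type E. coli (-0.46). In MyD88-/- LPS, Plod1 was lower (-0.49) and Ccng2 higher (1.12). Each of these calls was lost without single mice of its group. Ndrg1, a hypoxia-induced stress gene, was at 2.43, 1.99, 2.51 and 2.01 in wild-type and 1.80, 2.29, 2.26 and 1.97 in MyD88-/- mice with LPS. The E. coli values of Ndrg1 were 3.07, 3.39, 2.34 and 2.00 in wild-type and 1.46, 2.40, 1.87 and 1.17 in MyD88-/- mice. Every mouse was above 1, and the rises of 2.24 ± 0.22, 2.08 ± 0.22, 2.70 ± 0.22 and 1.72 ± 0.22 (adjusted p from 3.49e-07 to 6.17e-05) kept their call in all 26 settings of each response. Kdr, the VEGF receptor, fell by 2.24, 1.77, 1.92 and 1.80 in the 4 groups (LPS in wild-type and MyD88-/- cells, then E. coli in the same order) (SE 0.17 in each, adjusted p from 3.11e-07 to 5.52e-06), and also kept its call in all 26.

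Cited2, which competes with HIF for its coactivator, rose in wild-type cells, by 1.19 ± 0.17 with LPS and 1.29 ± 0.17 with E. coli, and was not called in MyD88-/- cells. Vhl, which marks Hif1a for destruction, fell by 1.28 in wild-type LPS, 1.06 in wild-type E. coli and 0.87 in MyD88-/- E. coli (SE 0.22, 0.22 and 0.25). In MyD88-/- E. coli mouse 2 had no value of Vhl. Vegfb, a relative of Vegfa, fell by 0.63 in wild-type LPS, 0.52 in MyD88-/- LPS and 0.53 in MyD88-/- E. coli (SE 0.12 in each). The call of Vhl in MyD88-/- E. coli was lost in 11 of 24 settings, with leaving out mouse 1 (adjusted p = 0.165) or 3 (0.219) of that group among them. That of Vegfb was lost without mouse 1 in MyD88-/- LPS and without mouse 1 or 2 in MyD88-/- E. coli. The genotype difference of Cited2 was -1.07 ± 0.24 with E. coli (adjusted p = 0.0506), where every wild-type mouse (0.94 to 1.64) lay above every MyD88-/- mouse (-0.32 to 0.57), and it passed in 5 of 27 settings. With LPS it was -0.79 ± 0.24 (adjusted p = 0.278), and the wild-type mice (0.91 to 1.46) again lay above the MyD88-/- mice (-0.01 to 0.64). Of all genes tested, 6.75% with LPS and 9.12% with E. coli had no overlap between the genotypes. Neither genotype difference was called for Vhl or Vegfb.

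Of 16 tested genes of PI3K, Akt, mTOR and Myc signalling, which drive glycolysis in growing cells, 6 were higher and 0 lower in wild-type LPS, 2 and 1 in MyD88-/- LPS, 5 and 1 in wild-type E. coli and 3 and 0 in MyD88-/- E. coli, beside 8.53% and 9.09%, 5.81% and 4.87%, 9.86% and 11.9%, and 6.82% and 4.57% of all genes. Myc, a transcription factor for glycolytic genes, was at 1.60, 1.36, 2.05 and 4.04 in wild-type and -0.38, -0.44, 1.30 and -0.09 in MyD88-/- mice with LPS. The E. coli values of Myc were 2.00, 1.02, 2.76 and 3.26 in wild-type and -0.52, -1.38, -0.69 and 0.19 in MyD88-/- mice. Every wild-type mouse lay above every MyD88-/- mouse under both stimuli. Myc rose by 2.26 ± 0.43 with LPS and 2.26 ± 0.43 with E. coli in wild-type cells (adjusted p = 0.00166 and 0.00138) and was at 0.10 and -0.60 in MyD88-/- cells (adjusted p = 0.926 and 0.462).

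The genotype difference of Myc was -2.86 ± 0.61 with E. coli (adjusted p = 0.0405), which no other gene of the 4 lists passed, and -2.17 ± 0.61 with LPS (adjusted p = 0.231). The difference with E. coli passed in 11 of 27 alternative settings, with adjusted p from 0.00238 to 0.152 and values from -3.27 to -2.44. It was lost on leaving out any of the wild-type mice 1, 3 and 4 or MyD88-/- mice 1, 2 and 3 given E. coli, and any of wild-type mouse 3 and MyD88-/- mice 1, 2 and 4 given LPS. Mxd4, of the family that opposes Myc, rose in all 4 groups by 0.40, 0.48, 0.68 and 0.45 (SE 0.11 in each), and its call was lost in 4 of 26 settings in each group but wild-type E. coli. These include leaving out wild-type LPS mouse 2 or 4, and mouse 2 or 3 of either MyD88-/- group.

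**Figure D4:**
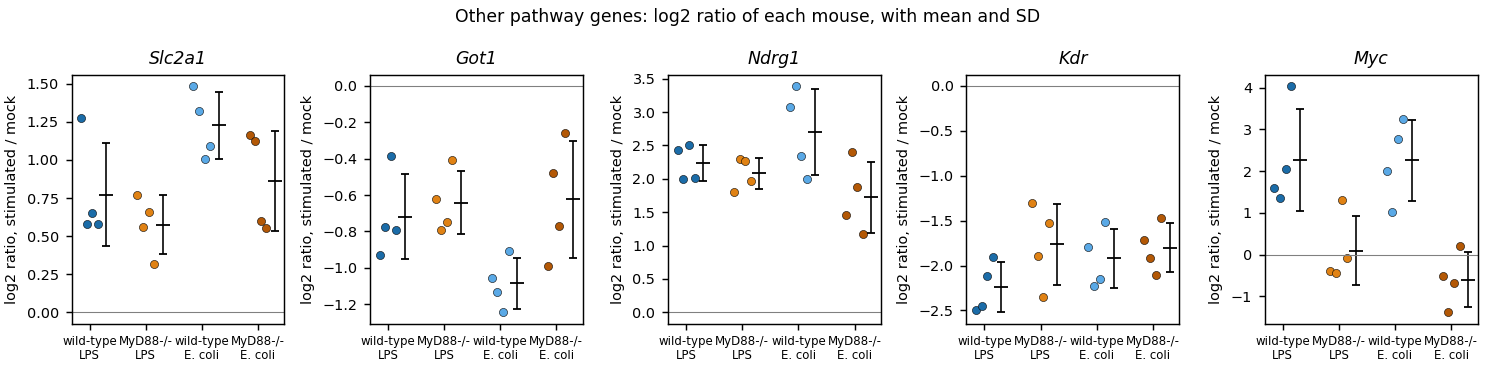
Log2 ratio of stimulated over mock cells (vertical axis, with its own range in each panel) of Slc2a1, Got1, Ndrg1, Kdr and Myc in each mouse, by group. Points are mice, and the bar beside them is their mean with the SD (n = 4). Slc2a1 and Ndrg1 are above 0 and Got1 and Kdr below 0 in all 16 samples, while Myc is above 1 in all 8 wild-type samples and above 1 in 1 of 8 MyD88-/- samples.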

How the data were processed

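The data are 31 spotted arrays that carry macrophage RNA, stimulated in one dye and mock in the other. The authors used a GenePix 4000B scanner, GenePix Pro 3.0, BASE and GeneSpring, per the labels. What they deposited is 1 log2 ratio per probe and array, in the form their own normalization left it. The background correction, normalization and spot filter are not given in the sources used here, nor is the direction of the ratio. The 15 dye pairs correlated above 0 (r from 0.256 to 0.71), so no array was turned. All 31 columns were matched to samples by the labels.

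Values at log2(0.01), 4333 of 265421 (1.63%), were set to missing, and dye pairs were averaged into 16 ratios, 1 for each mouse and stimulus. A probe with a value on only 1 array of a pair kept that value. The fit took the 7325 of 13872 probes that were measured in 3 or more of the 4 mice in each group, with 1 coefficient per group in limma 3.58.1 (R 4.3.3, lmFit and eBayes), all 4 groups sharing the spread. P-values are 2-sided and adjusted by Benjamini and Hochberg over all 7325 probes. Where a gene had more than 1 probe, that measured on the most arrays was used, ties going to the lowest ID. Aldoc was the only member with more than 1 probe, and its second had values on 6 arrays. Fitted values carry limma's SE. Of 13872 probes 11480 had 1 symbol in the platform's annotation, 50 several and 2342 none. Comparisons that share a group share its samples, as the stimulus and genotype differences do with the responses.

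Members given with every mouse's value were those called in any comparison, the 2 of smallest p in each difference, and Hif1a, Hk2, Pfkfb3, Ldha, Gapdh and Vegfa. Of other pathway genes and markers, called ones could be named. The members, lists and rules were chosen with earlier results of these data known. Alternatives covered the floor values, centring, scaling, missing values, dye orientation, a dye term with a random block, gene means, the groups fitted, a 2-fold limit, replicate blocks and leaving out each mouse-level ratio. If mice of the same number are the same animal in both stimuli, the 16 ratios are not all independent. Between stimuli, same-numbered residuals had correlations from -0.057 to 0.142. Scripts were tested on simulated data. Promoters came from RefSeq (GRCm38.p6), 40 of the 41 members having one by symbol, and the orientation of the windows was checked on 1677 overlapping pairs, all 1677 reverse complements. Figures were drawn with matplotlib 3.10.9.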

Additional observations from a re-analysis of the deposited data

Results flagged for a closer look

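In each group of 4 mice, the most extreme mouse was set against the nearest of the others with Dixon's ratio, over the tested members measured in all 4 mice. Of 68 such groups 4 held a mouse past its 95% critical value, and chance marks about 1 in 20. Hk1 was at 0.0899 in MyD88-/- LPS mouse 3, where the other mice lay between -0.183 and -0.149. Pdha1 was at -0.551 in wild-type E. coli mouse 1, against -0.0635 to 0.0105. Taldo1 was at -0.764 in MyD88-/- LPS mouse 4, the mouse with 1 array, against -0.249 to -0.148. Vegfa was at -2.78 in wild-type E. coli mouse 1, a value from 1 unswapped array, against -1.28 to -1.14.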

How the results depend on the processing

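No member changed the direction of a called value under any alternative run. The count of members called in wild-type LPS stayed between 2 and 4. In MyD88-/- LPS it was 1, and 2 with a dye term and random block, where Eno2 was added as lower, with a range of 1 to 2 when a replicate was left out. In wild-type E. coli it was 2, 4 with the dye term, 1 with a 2-fold limit, and 1 to 4 without a replicate. In MyD88-/- E. coli it was 1, 3 on arrays without dye swap (Pgls higher and Taldo1 lower besides Hk2), 2 with the dye term (Taldo1 lower), and 1 to 2 without a replicate. Every difference kept 0 members called in each setting, also with the mouse number as a replicate block (0 in each comparison of stimuli and of genotypes). Same-numbered mice of the 2 genotypes are different animals, and their residuals correlated between -0.041 and 0.191. Over the named members 1622 values kept their side of the threshold, 18 passed it and 8, all of Pkm, lost it. The few arrays a member was measured on are what limits 11 of the 29 members with a probe.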
